A study of Mus musculus with 4 samples.

Results

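Chil1 and Chil3 are 2 of the 32285 genes measured here in cells of mouse prostate tumours, and 2 of the 10 measured genes of the glycoside hydrolase family 18 (GH18), the chitinase family. They are described as a pair because, in these data, they moved in opposite directions between the 2 genotypes of the study. Their own values between the genotypes are therefore given as a description, with no test. The DKO group (2 libraries) carried the Nkx3.1CreERT2 driver, a tamoxifen-inducible Cre expressed from a prostate epithelial gene, with floxed alleles that include Smad4 and are not all named here. The TKO group (2 libraries) carried the same driver and the same floxed alleles, plus Pygo2L/L. No group with intact floxed genes is among the samples, and the groups differ by Pygo2, which encodes a chromatin reader of the Wnt pathway. All tumours received tamoxifen, and the design names 10 and 17 weeks after it. The labels do not tie libraries to weeks, so time and genotype cannot be told apart, and the ages of the animals are not stated in the labels. The labels do not say whether replicates are separate animals, so a p-value here reflects the spread of these libraries alone, and that spread may be technical.

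Chitinase-like proteins keep the fold of a chitinase but have lost the catalytic residues, so they bind sugars without cutting chitin. Chil1 encodes BRP-39, the mouse counterpart of human YKL-40 (CHI3L1), a secreted glycoprotein made by neutrophils, macrophages, fibroblasts and injured epithelium, which signals through receptors that include Il13ra2 with Tmem219, and Ptgdr2. Chil3 encodes Ym1, a secreted rodent lectin that is stored in immature neutrophils and made by inflammatory monocytes. It is also widely used as a marker of macrophages activated by interleukin-4 or interleukin-13.

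In mm10, Chil1 (ENSMUSG00000064246) lies on the plus strand at chr1:134182176-134190181 and has 10 exons, downstream of the chitotriosidase gene Chit1 at chr1:134111242-134151540. Chil3 (ENSMUSG00000040809) lies on the minus strand at chr3:106147554-106167564 and has 11 exons. Its neighbours on chromosome 3 include Chia1, the acidic mammalian chitinase gene, at chr3:106113229-106132120 and its near copy Chil4 (Ym2) at chr3:106201490-106219507. The promoters are printed to show how different the sequences at the starts of these relatives are. Each is 250 bases before and 10 bases after the RefSeq start on GRCm38.p6, 5′ to 3′ on the gene's own strand, from chr1:134181906-134182165 for Chil1 and chr3:106167555-106167814 for Chil3. Capitals mark every match, on either strand, to the motifs searched.
Chil1: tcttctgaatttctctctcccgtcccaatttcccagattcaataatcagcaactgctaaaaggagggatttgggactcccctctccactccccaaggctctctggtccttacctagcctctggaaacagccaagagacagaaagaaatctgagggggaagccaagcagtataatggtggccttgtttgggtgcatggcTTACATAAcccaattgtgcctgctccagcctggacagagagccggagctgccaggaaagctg
Chil3: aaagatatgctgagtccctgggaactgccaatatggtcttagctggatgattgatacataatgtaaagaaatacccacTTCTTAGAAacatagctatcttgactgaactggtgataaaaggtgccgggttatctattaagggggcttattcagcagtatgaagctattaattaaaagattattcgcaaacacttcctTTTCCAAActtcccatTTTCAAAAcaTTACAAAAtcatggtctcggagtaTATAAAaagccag
The C/EBP core TTNNGNAA, bound by factors of granulocyte and monocyte maturation, matched once in Chil1 (TTACATAA, beginning 52 bases before the start), and 37.7% of 32851 promoters of the same length hold it. Chil3 had 3 such matches, beginning 53, 37 and 27 bases before the start. Chil3 also held TATAAA, beginning 3 bases before the annotated start (12.7% of promoters), and the STAT element TTCNNNGAA as TTCTTAGAA, beginning 172 bases before it (7.33% of promoters). Neither of these letters was found in the Chil1 window. The STAT6 element (6.09% of promoters), the PU.1 core GAGGAAG (11.1%), the NF-kB element (1.46%) and the AP-1 element TGANTCA (7.03%) were found in neither window. The GC content was 51.5% in the Chil1 window and 36.5% in the Chil3 window.

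The 4 libraries kept 617 and 759 cells (DKO replicates 1 and 2) and 1208 and 797 cells (TKO replicates 1 and 2), with 9167770 to 18360201 unique molecular identifiers (UMIs, counted molecules) in each and medians of 8404 to 10310 UMIs per cell. A single hashtag led in 100% of the cells of each library, and the libraries shared 0 cell barcodes. The libraries were loaded together and told apart by hashtag, so both outcomes were fixed in advance and neither checks the labels. Cells were grouped by clustering that left out Chil1 and Chil3, and clusters were named from markers, so a class is called neutrophil-like, fibroblast-like and so on. In neutrophil-like cells the 12 neutrophil markers summed to 41510 to 59020 UMIs per 1000000 UMIs (CPM), and all 12 were detected in each library. In epithelial-like cells Pygo2 had 10 and 33 UMIs in DKO (8.96 and 8.70 CPM) and 25 and 4 in the TKO libraries (16.0 and 7.24 CPM), so TKO replicate 1 was above and TKO replicate 2 below both DKO libraries. Smad4 was detected in both groups, at 53.7 to 74.4 CPM. The reads come from the 3′ ends of transcripts, which may lie outside the floxed segments, so neither gene checks the labels.

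Chil3 RNA was found in macrophage- and monocyte-like cells and in neutrophil-like cells, and of these 2 classes the neutrophil-like level stood apart between the genotypes while the level of the other class as a whole overlapped. In neutrophil-like cells Chil3 reached 281 and 284 CPM in the DKO replicates 1 and 2 against 33.9 and 9.07 CPM in the TKO replicates 1 and 2. Both TKO libraries were below both DKO libraries, a position that 10.3% of the 9083 genes tested in this class shared. The means were 283 ± 2.32 CPM in DKO against 21.5 ± 17.5 CPM in TKO (SD, n = 2 each). The fitted log2 difference, TKO minus DKO, was −3.74 ± 0.49 (SE, edgeR), and 2 of the 9083 genes had a lower value. Over all neutrophil-like cells the DKO libraries gave 1285 Chil3 UMIs and the TKO libraries 138. Relative to all UMIs the level was 11-fold higher in DKO (95% interval 9.21 to 13.2, counting error only).

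The share of positive cells and the molecules per positive cell were both lower in TKO. In the DKO replicates 107 of 337 and 106 of 289 neutrophil-like cells had a Chil3 UMI (31.7% and 36.7%). In the TKO replicates 52 of 512 and 8 of 281 cells had one (10.2% and 2.85%). Positive cells held 6.71 and 5.35 Chil3 UMIs on average in the DKO libraries against 2.35 and 2 in the TKO libraries. T- and NK-like cells should lack the gene. They had a Chil3 UMI in 0% and 2.60% of cells in DKO against 2.23% and 2.26% in TKO. The raw neutrophil-like share in TKO replicate 2, at 2.85%, was thus close to theirs. The median depth of T- and NK-like cells was 10630 to 13080 UMIs per cell, against 6133 to 7172 in neutrophil-like cells. Per UMI, Chil3 in TKO replicate 2 was at 9.07 CPM in neutrophil-like and 1.815 CPM in T- and NK-like cells, from 16 and 7 UMIs. With every cell thinned to 1000 UMIs, the neutrophil-like shares were 15.3% and 16.1% in DKO against 1.97% and 0.722% in TKO. This left out 3 and 4 DKO cells and 5 and 4 TKO cells as too shallow.

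Macrophage- and monocyte-like cells carried the most Chil3 per UMI, with 660 and 998 CPM in DKO against 893 and 723 CPM in TKO. The groups overlapped, with means of 829 ± 240 and 808 ± 120 CPM (SD, n = 2 each). The fitted log2 difference was −0.08 ± 0.25 (SE). Positive cells made up 58.3% and 42.4% of the class in DKO against 53.2% and 47.6% in TKO. Neutrophil-like cells held 49.9% and 38.7% of all Chil3 UMIs in the DKO libraries against 5.97% and 3.02% in the TKO libraries. Macrophage- and monocyte-like cells held 49.7% and 57.9% in DKO against 91.9% and 95.5% in TKO.

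**Figure D1:**
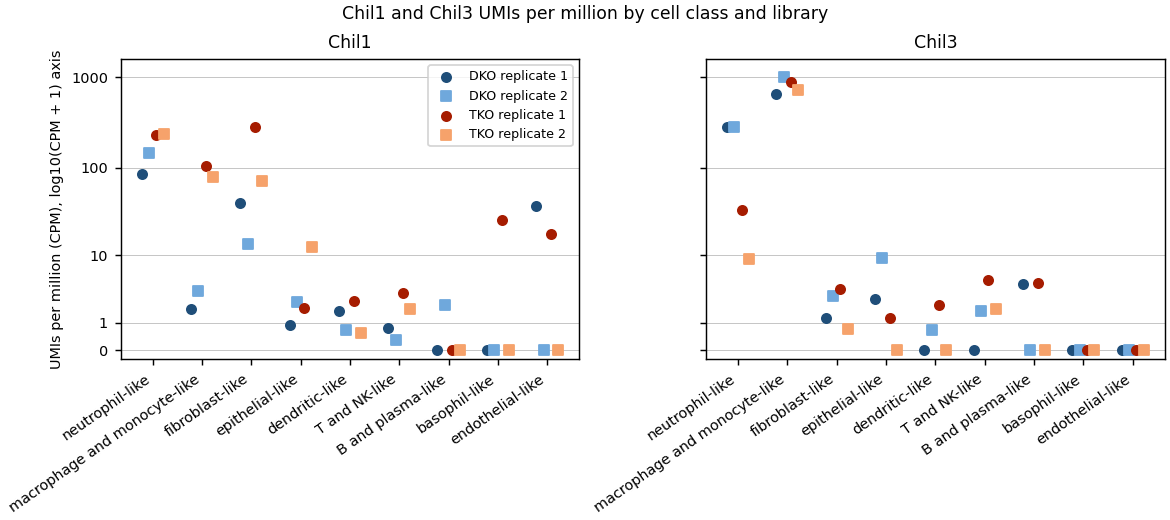
Chil1 (left) and Chil3 (right) in CPM on a log10(CPM + 1) axis, with a point for each library in each cell class. Chil3 in neutrophil-like cells lies at 281 and 284 CPM in DKO and at 33.9 and 9.07 CPM in TKO, while Chil1 in macrophage- and monocyte-like cells lies at 1.85 and 3.52 CPM in DKO and at 104 and 80.0 CPM in TKO.

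The remaining classes held little Chil3. Fibroblast-like cells gave 2, 7, 10 and 1 UMIs in DKO replicates 1 and 2 and TKO replicates 1 and 2, and dendritic-like cells 0, 1, 6 and 0. Epithelial-like cells gave 3, 35, 2 and 0 UMIs, and a single cell held 32 of the 35 in DKO replicate 2. In both genotypes the order of Chil3 levels ran from macrophage- and monocyte-like to neutrophil-like cells, with every other class tested under 10 CPM in each library. Neighbours among those lower classes did not differ beyond their spread. In TKO replicate 2 the neutrophil-like level itself, at 9.07 CPM, was close to the highest of these values, 9.23 CPM in epithelial-like cells of DKO replicate 2.

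Neutrophil-like cells fell into 5 clusters, here called by their leading gene. Chil3 was lower in both TKO libraries than in both DKO libraries in each of the 5. The share of all genes with such a position is not given for single clusters. The clusters come from the same 4 libraries, so they are not separate replicates of the difference. The Siglecf cluster had 279 and 416 CPM in DKO against 36.0 and 16.0 CPM in TKO. The Retnlg cluster, led by a gene of circulating and maturing neutrophils, had 193 and 213 CPM in DKO against 12.0 and 1.57 CPM in TKO. The Rsad2 cluster, led by an interferon-induced gene, had 178 and 189 CPM in DKO against 12.8 and 0 CPM in TKO. There 0 of 65 cells of TKO replicate 2 had a Chil3 UMI, which allows a share of up to 5.52% (exact 95% limit, counting error only). The Il23a cluster had 376 and 291 CPM in DKO against 38.2 and 6.67 CPM in TKO. The small Adamdec1 cluster kept the most in TKO, with 450 and 561 CPM in DKO against 137 and 123 CPM in TKO, from only 19 and 5 TKO cells. The lower level was thus not tied to 1 cluster, although the clusters' sizes differed between libraries, with the Siglecf cluster holding 114, 58, 209 and 55 cells.

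**Figure D2:**
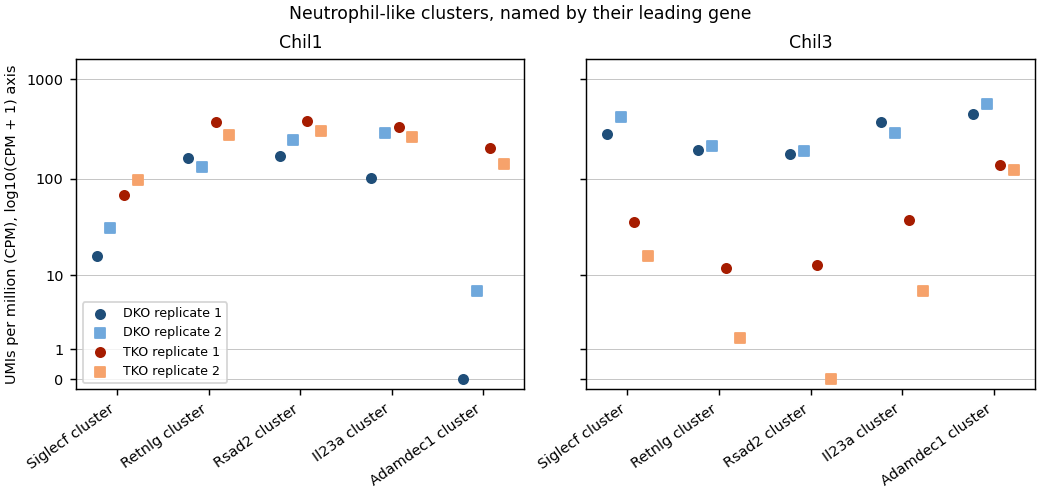
Chil1 (left) and Chil3 (right) in CPM on a log10(CPM + 1) axis in the 5 neutrophil-like clusters, with a point for each library. Chil3 is lower in both TKO libraries in all 5 clusters. The share of all genes with this position is not given for single clusters. The Chil1 points of the Il23a cluster overlap at 101 and 291 CPM in DKO against 334 and 260 CPM in TKO.

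Chil1 took the other direction in the neutrophil-like class. Its level was 86.1 and 145 CPM in the DKO replicates against 231 and 236 CPM in the TKO replicates. Both TKO libraries were above both DKO libraries, as were 18.6% of the genes tested in this class, so this position alone is common. The means were 115 ± 41.6 and 233 ± 3.39 CPM (SD, n = 2 each), and the fitted log2 difference was 0.94 ± 0.32 (SE), with 171 of 9083 genes higher. The pooled level was 2.08-fold higher in TKO (95% interval 1.87 to 2.31, counting error only). Cells with a Chil1 UMI made up 24.9% and 36.0% of the class in DKO against 38.9% and 45.6% in TKO. Thinned to 1000 UMIs per cell these shares were 8.68% and 11.9% in DKO against 15.8% and 19.5% in TKO. The value depended on the DKO library: without DKO replicate 1 the log2 difference was 0.54, and without DKO replicate 2 it was 1.47.

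Among the neutrophil-like clusters Chil1 was low in the Siglecf cluster, with 16.0 and 31.8 CPM in DKO against 68.7 and 96.1 CPM in TKO. It was higher in the Retnlg cluster, with 160 and 130 CPM in DKO against 375 and 274 CPM in TKO. The Rsad2 cluster had 170 and 246 CPM in DKO against 378 and 302 CPM in TKO. In the Il23a cluster the groups overlapped, with 101 and 291 CPM in DKO against 334 and 260 CPM in TKO. The Adamdec1 cluster had 0 and 6.68 CPM in DKO, from 0 and 1 UMIs, and 206 and 140 CPM in TKO. The order of clusters therefore differed between the genes: the Siglecf and Adamdec1 clusters were low in Chil1 in DKO and high in Chil3. The Il23a cluster was also high in Chil3 in DKO, at 376 and 291 CPM, but was not low in Chil1.

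The widest difference of Chil1 was in macrophage- and monocyte-like cells, where it was nearly absent from DKO. The DKO libraries gave 2 and 3 Chil1 UMIs (1.85 and 3.52 CPM), and the TKO libraries 220 and 56 UMIs (104 and 80.0 CPM). Both TKO libraries were above both DKO libraries, as were 21.7% of the 7688 genes tested in this class. The means were 2.69 ± 1.18 and 92.2 ± 17.3 CPM (SD, n = 2 each), and the fitted log2 difference of 5.06 ± 0.44 (SE) was exceeded by 3 genes. The pooled level was 38-fold higher in TKO, with a wide 95% interval of 16.1 to 118 (counting error only), since the DKO libraries together gave 5 UMIs. Positive cells numbered 2 of 36 and 2 of 33 in DKO (5.56% and 6.06%), and 41 of 77 and 20 of 42 in TKO (53.2% and 47.6%). In T- and NK-like cells, which were less deep, the Chil1 share was 0.885% and 0.433% in DKO against 3.06% and 2.26% in TKO. That share was thus also higher in TKO but remained far below the share in this class. Per UMI, T- and NK-like cells had 3.25 and 1.815 CPM of Chil1 in TKO. Thinned to 1000 UMIs per cell, the shares of macrophage- and monocyte-like cells were 0% and 0% in DKO against 9.09% and 4.76% in TKO.

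At a finer clustering the class split into a monocyte-like cluster, led by Plcb1, F13a1 and Lyz2, and a macrophage-like cluster, led by the complement genes C1qa, C1qc and C1qb. The monocyte-like cluster held 14 and 17 cells in DKO against 54 and 38 in TKO, and the macrophage-like cluster 21 and 15 in DKO against 17 and 4 in TKO. Most of the class was thus macrophage-like in DKO replicate 1 and monocyte-like in the other 3 libraries. Within the monocyte-like cluster Chil1 gave 2 and 0 UMIs in DKO against 217 and 54 UMIs in TKO. Positive cells were 2 of 14 and 0 of 17 in DKO, with exact 95% intervals of 1.78% to 42.8% and 0% to 19.5%. They were 38 of 54 and 19 of 38 in TKO (70.4% and 50.0%), with intervals of 56.4% to 82.0% and 33.4% to 66.6%. These intervals cover counting error only. Macrophage-like cells gave 0 and 3 Chil1 UMIs in DKO against 3 and 2 in TKO. In TKO nearly all Chil1 of the class thus came from its monocyte-like cells. The few DKO UMIs came from monocyte-like cells in replicate 1 and from macrophage-like cells in replicate 2.

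Chil3 looked different once these cells were separated. In the monocyte-like cluster it had 2614 and 2644 CPM in DKO against 1512 and 838 CPM in TKO, so both TKO libraries were lower although the class as a whole overlapped. The 5 cells with the most Chil3 held 86.4% and 79.6% of its UMIs in DKO, from 14 and 17 cells, against 37.8% and 66.8% in TKO. The share of all genes with such a position is not given for this cluster. The positive shares overlapped, at 71.4% and 76.5% in DKO against 74.1% and 52.6% in TKO. Macrophage-like cells had 81.1 and 24.4 Chil3 CPM in DKO against 7.33 and 0 CPM in TKO, from 65, 12, 5 and 0 UMIs. A single cell held all 12 UMIs of DKO replicate 2, and a single cell all 5 of TKO replicate 1. TKO replicate 2 had only 4 such cells. The class overlapped while monocyte-like cells made up more of it in the TKO libraries.

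**Figure D3:**
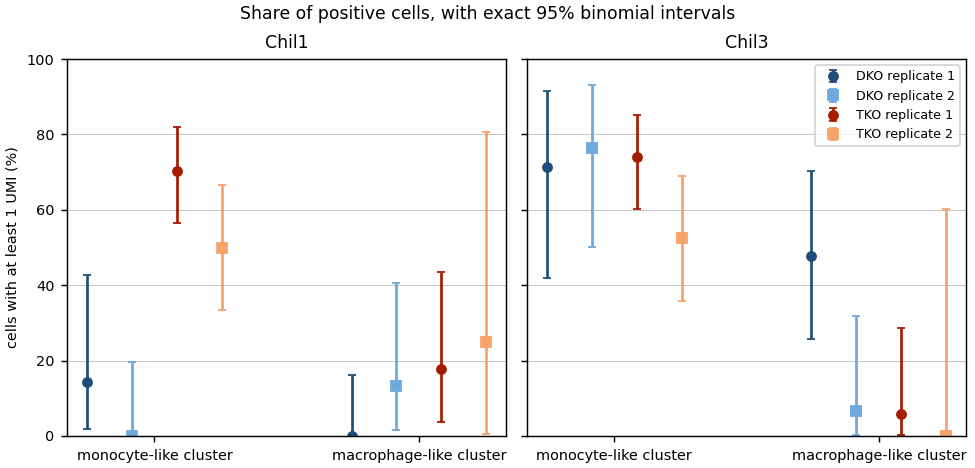
Percent of cells with at least 1 UMI of Chil1 (left) or Chil3 (right) in the monocyte-like and macrophage-like clusters, by library, with exact 95% binomial intervals as bars. The Chil1 share of the monocyte-like cluster is 14.3% and 0% in DKO against 70.4% and 50.0% in TKO, and the Chil3 shares of that cluster overlap between the groups.

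Markers of neutrophils were low in the macrophage- and monocyte-like class. The 12 neutrophil markers summed to 742 and 1733 CPM in DKO against 528 and 640 CPM in TKO. In each library 10 or 11 of the 12 were detected. Ly6g, a defining neutrophil surface marker, was at 0 in every library, as it was in T- and NK-like and dendritic-like cells. The neutrophil sum was lower in the TKO libraries, and the part of neutrophil RNA in the Chil1 level was not tested. Within the monocyte-like cells of TKO the neutrophil markers summed to 524 and 614 CPM in Chil1-positive cells and 511 and 648 CPM in Chil1-negative cells. The T and NK markers summed to 539 and 199 CPM in those Chil1-positive cells and 119 and 114 CPM in the Chil1-negative cells. In the whole class the 10 macrophage markers summed to 16430 and 19590 CPM in DKO against 13170 and 6421 CPM in TKO. The 9 monocyte markers summed to 15610 and 13300 CPM in DKO against 16980 and 17140 CPM in TKO, and the part of this makeup in the class-level values was not tested. In neutrophil-like cells the neutrophil markers were higher in DKO (52640 and 59020 CPM) than in TKO (41510 and 46300 CPM), beside the higher Chil3, and the part of this in the Chil3 level was not tested.

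Fibroblast-like cells were the third class with Chil1, and there a few cells carried most of it. Chil1 gave 64 and 32 UMIs in DKO (40.9 and 13.6 CPM) and 762 and 99 UMIs in TKO (284 and 72.2 CPM). Both TKO libraries were above both DKO libraries, as were 16% of the 10839 genes tested in this class. The means were 27.3 ± 19.3 and 178 ± 150 CPM (SD, n = 2 each), so the TKO libraries differed from each other by more than the distance between TKO replicate 2 and the DKO libraries. The fitted log2 difference was 2.78 ± 0.93 (SE), and 1.45 without TKO replicate 1. The 5 cells with the most Chil1 held 82.8% to 96.9% of its UMIs in each library, and the highest cell held 56, 18, 238 and 26 UMIs. Positive cells made up 24.1% and 24.4% of the class in DKO against 39.7% and 44.8% in TKO. Thinned to 1000 UMIs these shares were 3.45% and 2.44% in DKO against 6.90% and 6.90% in TKO, from 1 cell in each DKO library and 4 and 2 cells in TKO. Neutrophil markers summed to 362 to 741 CPM in this class with Ly6g at 0 in each library, and the 7 fibroblast markers to 29940 to 34020 CPM. In Chil1-positive cells the neutrophil sum was 142.5 and 1664 CPM in DKO against 394.5 and 574.5 CPM in TKO. In Chil1-negative cells it was 477.5 and 217.1 CPM in DKO against 406.8 and 884.8 CPM in TKO. Chil1-positive cells had medians of 83800 and 53590 UMIs in DKO and 66400 and 41990 in TKO. Chil1-negative cells had 46700 and 42830 in DKO and 27570 and 39690 in TKO. The part of depth in the positive shares was not tested.

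By their mean Chil1 levels, neutrophil-like, fibroblast-like, macrophage- and monocyte-like, epithelial-like and dendritic-like cells kept this order in both genotypes. T- and NK-like cells lay below dendritic-like cells in DKO (0.53 against 1.18 CPM) and above them in TKO (2.53 against 1.53 CPM). The libraries of these classes overlapped in both genotypes. In DKO neutrophil-like cells came first, then fibroblast-like cells, then macrophage- and monocyte-like cells at 2.69 ± 1.18 CPM (SD, n = 2), which did not differ beyond the spread from epithelial-like cells at 1.63 ± 1.04 CPM or dendritic-like cells at 1.18 ± 0.75 CPM. In TKO neutrophil-like and fibroblast-like cells did not differ beyond the spread of the fibroblast-like libraries. Macrophage- and monocyte-like cells, at 92.2 ± 17.3 CPM (SD, n = 2), overlapped the fibroblast-like range and lay above epithelial-like cells at 7.29 ± 7.60 CPM and dendritic-like cells at 1.53 ± 1.37 CPM. Epithelial-like cells, the cells in which the driver acts, gave 1 and 9 Chil1 UMIs in DKO against 3 and 7 in TKO. Neutrophil-like cells held 74.8% and 85.8% of all Chil1 UMIs in DKO against 45.1% and 71.0% in TKO. Macrophage- and monocyte-like cells held 0.680% and 0.890% in DKO against 11.9% and 9.56% in TKO, and fibroblast-like cells 21.8% and 9.50% in DKO against 41.3% and 16.9% in TKO. Over all cells Chil1 had 32.1 and 23.0 CPM in DKO against 100.5 and 55.8 CPM in TKO, and Chil3 had 157 and 100.1 CPM in DKO against 111 and 50.5 CPM in TKO. Chil3 summed over all cells thus overlapped between the genotypes, and its contrast was visible only by cell class.

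The pair was found together in the same cells of the TKO monocyte-like cluster. Cells with a UMI of each gene numbered 1 of 14 and 0 of 17 in DKO against 33 of 54 and 11 of 38 in TKO. In TKO replicate 1, 86.8% of the 38 Chil1-positive cells and 43.8% of the 16 Chil1-negative cells had a Chil3 UMI. In TKO replicate 2 the shares were 57.9% of 19 and 47.4% of 19 cells. Chil1-positive and Chil1-negative cells had medians of 21920 and 21240 UMIs in TKO replicate 1, and of 18800 and 11860 UMIs in TKO replicate 2, so depth differed along with Chil1 in the second of these libraries. In neutrophil-like cells Chil3 was found in 38.1% of Chil1-positive and 29.6% of Chil1-negative cells of DKO replicate 1, and in 37.5% and 36.2% in DKO replicate 2. In the TKO libraries those shares were 13.1% and 8.31%, and 2.34% and 3.27%. The share of Chil3-positive cells was thus lower in TKO among neutrophil-like cells with Chil1 and among those without.

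**Figure D4:**
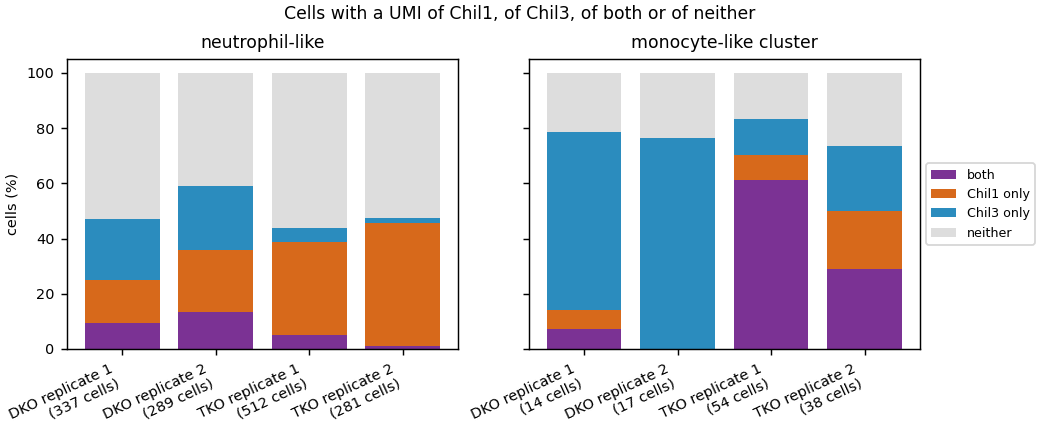
Percent of cells with a UMI of both genes, of Chil1 only, of Chil3 only or of neither, stacked to 100% for each library, in neutrophil-like cells (left) and in the monocyte-like cluster (right). In the monocyte-like cluster the bar for both genes stands for 1 of 14 and 0 of 17 cells in DKO and for 33 of 54 and 11 of 38 cells in TKO.

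The other GH18 genes were rare in these cells or were not called. Chil4, the near copy of Chil3, gave 1 UMI in all cells, in TKO replicate 2. Of the 90-base stretches in the last 500 bases of the Chil3 transcripts, 64 of 731 (8.76%) also occur in another gene, in each case Chil4, and 0 of 1453 do for Chil1. Chit1, the macrophage chitinase that neighbours Chil1, gave 49 UMIs, of which 46 were in epithelial-like cells (12 in DKO replicate 2 and 34 in TKO replicate 1) and 0 in macrophage- and monocyte-like cells. Chia1 gave 1 UMI, Chil6 gave 4, Chil5 gave 35 and Ovgp1, the oviductal glycoprotein gene, gave 100. Chid1 and Ctbs, the lysosomal chitobiase gene, gave 795 and 777 UMIs and were the only others of the family to pass the filter on low counts. In neutrophil-like cells Chid1 had a log2 difference, TKO minus DKO, of −0.32 ± 0.50 and Ctbs of −0.07 ± 0.29 (SE, edgeR adjusted p = 1.00 for each). In macrophage- and monocyte-like cells Ctbs had −0.77 ± 0.41 (adjusted p = 0.811) and Chid1 0.35 ± 0.54 (adjusted p = 0.945).

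Genes with related roles were read from the same fits, with Benjamini-Hochberg adjustment at 0.05 over all genes of a class. In neutrophil-like cells this called 1 of 9083 genes (0.011%), in macrophage- and monocyte-like cells 3 of 7688 (0.039%) and in fibroblast-like cells 0 of 10839 (0%). At an unadjusted p under 0.05 these counts were 364, 528 and 409, and DESeq2 called 14, 35 and 10 genes. The lists below do not count Chil1 and Chil3.

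Neutrophil granule and maturation genes lay mostly on the side of Chil3 in neutrophil-like cells, but none passed the test. Of 20 genes 16 were tested and 0 called, and 4 had positive and 12 negative differences, with a median of −0.52 against 0.00 over all genes. In 10 of the 16 both TKO libraries were below both DKO libraries, against 10.3% of all genes, and in 1 both were above. Mmp8, a collagenase of the specific granules, had 53.2 and 81.7 CPM in DKO against 7.22 and 18.1 CPM in TKO (log2 −2.57 ± 0.50 SE, edgeR adjusted p = 0.513). Lcn2, the granule siderophore-binding protein, had 630 and 556 CPM in DKO against 287 and 296 CPM in TKO (−1.08 ± 0.22, adjusted p = 0.529). Cd177, a neutrophil surface glycoprotein, had 45.4 and 43.1 CPM in DKO against 21.9 and 20.4 CPM in TKO (−1.13 ± 0.25, adjusted p = 0.550). For these 3 genes, as for Chil3, the groups did not overlap.

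In macrophage- and monocyte-like cells 11 of the 20 granule and maturation genes were tested and 0 called, 3 with positive and 8 with negative differences (median −0.58, against −0.01 over all genes). S100a8, an alarmin abundant in neutrophils, had 83.1 and 344 CPM in DKO against 24.7 and 29.99 CPM in TKO (log2 −3.02 ± 0.76 SE, edgeR adjusted p = 0.592). Cxcr4, a chemokine receptor of marrow retention, differed by −0.57 ± 0.22 (adjusted p = 0.668) and Cd177 by 1.10 ± 0.44 (adjusted p = 0.684). These are the cells in which Chil1 was higher in TKO.

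Inflammatory monocyte genes were the only list with a called member in either class. All 13 were tested in macrophage- and monocyte-like cells, and 11 had positive and 2 negative differences, with a median of 0.57. In 8 of the 13 both TKO libraries were above both DKO libraries, against 21.7% of all genes, and in 1 both were below. Plac8, a gene of Ly6C-high monocytes, rose from 379 and 453 CPM in DKO to 1557 and 1848 CPM in TKO (log2 1.98 ± 0.21 SE, edgeR adjusted p = 0.0402). Without TKO replicate 2 this call was lost, and 0 list members were called. Plac8 is also among the 9 markers used to name monocyte-like clusters. Ms4a4c had 121 and 168 CPM in DKO against 380 and 453 CPM in TKO (1.48 ± 0.26, adjusted p = 0.270), and Ifitm6 136 and 148 CPM in DKO against 232 and 411 CPM in TKO (1.12 ± 0.31, adjusted p = 0.498). The larger monocyte-like share of the class in TKO moves with these values, and its part in them was not tested. In neutrophil-like cells 10 of the 13 were tested and 0 called (3 positive, 7 negative, median −0.11). The 3 with the smallest p there were Hp, the haptoglobin gene (−0.69 ± 0.24), Plac8 (0.63 ± 0.26) and Cd14 (−0.46 ± 0.24), each with an adjusted p of 1.00.

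The genes of interleukin-4 and interleukin-13 activation, for which Chil3 often stands as a marker, held no called gene either. In neutrophil-like cells 9 of 19 were tested and 0 called, 6 with positive and 3 with negative differences (median 0.06). The smallest p-values were those of the receptor chain gene Il13ra1 (−0.47 ± 0.21), the transcription factor gene Klf4 (0.39 ± 0.32) and Pdcd1lg2 (0.25 ± 0.28), each with an adjusted p of 1.00. Of the 19, 15 were tested in macrophage- and monocyte-like cells and 0 called, 6 with positive and 9 with negative differences (median −0.28). Arg1, arginase 1, had 1639 CPM in DKO replicate 1 and 121, 201 and 60.0 CPM in the other 3 libraries (−2.78 ± 1.48, adjusted p = 0.826), so its difference rests on a single library. Mrc1, the mannose receptor gene, differed by −0.56 ± 0.34 (adjusted p = 0.826) and Irf4 by 1.29 ± 0.79 (adjusted p = 0.831).

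Receptors and binding partners of the Chil1 protein held no called gene. Of 10 genes 6 were tested in neutrophil-like cells and 0 called (4 positive, 2 negative, median 0.07). Lgals3, the galectin-3 gene, had 389 and 408 CPM in DKO against 206 and 307 CPM in TKO (log2 −0.69 ± 0.29 SE), Itgb5 differed by 0.79 ± 0.40 and Itgav by −0.46 ± 0.25, each with an edgeR adjusted p of 1.00. In macrophage- and monocyte-like cells 6 were tested and 0 called (1 positive, 5 negative, median −0.18). Cd44, the hyaluronan receptor gene, had 1167 and 1022 CPM in DKO against 1220 and 1720 CPM in TKO (0.37 ± 0.23, adjusted p = 0.828). Itgb5 differed by −0.38 ± 0.31 (adjusted p = 0.901) and Lgals3 by −0.17 ± 0.18 (adjusted p = 0.927).

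Of the signals and factors of myeloid activation 0 were called in either class. In neutrophil-like cells 17 of 18 were tested, 7 with positive and 10 with negative differences (median −0.01). Csf3, the granulocyte colony-stimulating factor gene, had 28.6 and 86.2 CPM in DKO against 15.0 and 24.9 CPM in TKO (log2 −1.64 ± 0.60 SE). Cebpa, which encodes a C/EBP factor of early granulocyte development, had 3.91 and 4.01 CPM in DKO against 6.39 and 11.9 CPM in TKO (1.09 ± 0.52), and Cebpe, the factor of late granule genes, differed by −0.64 ± 0.43. The edgeR adjusted p was 1.00 for these 3. In macrophage- and monocyte-like cells 15 of 18 were tested, 9 with positive and 6 with negative differences (median 0.13). Tnf had 120 and 136 CPM in DKO against 31.8 and 60.0 CPM in TKO (−1.60 ± 0.33, adjusted p = 0.345), Cebpa differed by −1.07 ± 0.34 (adjusted p = 0.608) and Stat3 by 0.44 ± 0.24 (adjusted p = 0.807). In fibroblast-like cells, the third class with Chil1, 0 members of any of the 6 lists were called.

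**Figure D5:**
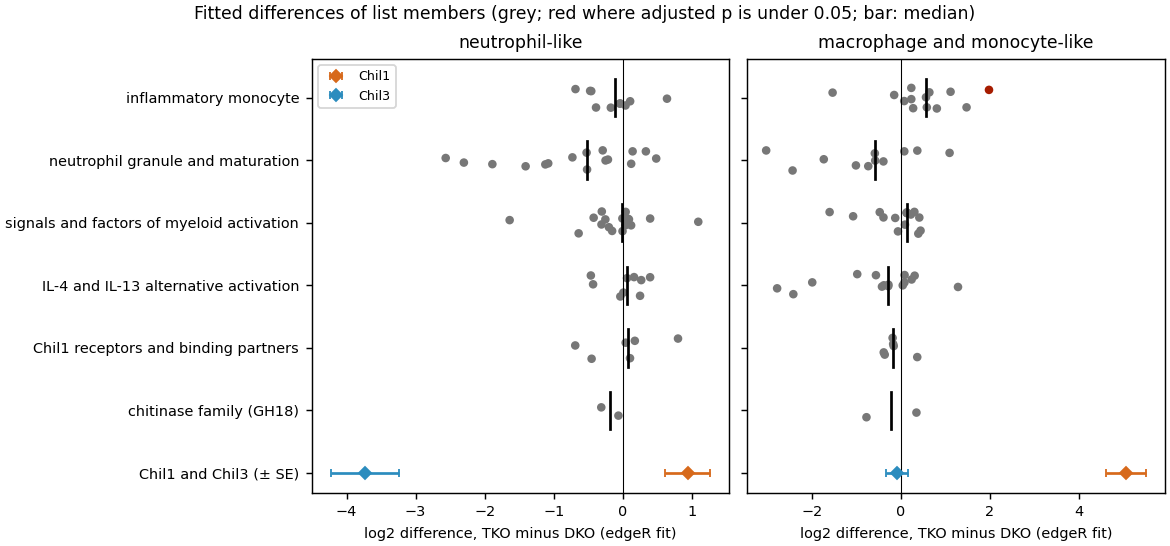
Fitted log2 differences, TKO minus DKO, of the members of the 6 lists in neutrophil-like cells (left) and macrophage- and monocyte-like cells (right), with the median of each list as a bar and Chil1 and Chil3 with their SE in the bottom row. Plac8 at 1.98 is the single called member (red), a call lost without TKO replicate 2, and Chil3 lies at −3.74 in neutrophil-like cells and at −0.08 in macrophage- and monocyte-like cells.

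The genes with the pattern most like each of the pair were found by Pearson's r of log2 CPM over the 24 sums of 6 classes in 4 libraries, among 6540 genes with a mean of at least 20 CPM. These points share libraries and classes, so r is a description. For Chil1 the 8 closest were Selenok (r = 0.855), Selenon (0.848), Dusp1 (0.838), Hp (0.835), P4ha1 (0.83), Ptpn12 (0.812), Sra1 (0.807) and Nfkbia (0.806). For Chil3 they were Apoc2 (0.896), Adgre1 (0.889), the F4/80 gene of macrophages, Mpp1 (0.879), Hdac5 (0.858), Slc11a1 (0.854), an ion transporter of phagosomes, Klra2 (0.852), F10 (0.851) and Atp6v1b2 (0.835). The r between Chil1 and Chil3 was 0.439, and the 2 sets of 8 genes have 0 genes in common.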

How the data were processed

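Cells of 4 hashtagged libraries (2 DKO, 2 TKO) were combined and loaded together on the 10x Genomics 3′ v3.1 assay, after enzymatic dissociation, red cell lysis and removal of Annexin V-positive cells, per the labels' protocols. Reads were processed with Cell Ranger 7.0.0 and STAR and the build mm10, per the submitters' processing notes. The authors deposited UMI counts per gene and cell, whole numbers with no normalisation. The shares of cells describe what survived dissociation. A floxed allele that the labels give for both genotypes is not reported here.

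Cells needed a minimum of 200 genes and a mitochondrial share no higher than 20% of UMIs. They were clustered (scanpy 1.11.5, 2000 variable genes without Chil1 and Chil3, 30 components, 20 neighbours, Leiden resolution 1.0, and 2.0 for the finer split). A cluster was named when at least 3 markers of a class rose by 1.0 (log2) against the median cluster with a score above 0.5 and no other class led its top 10 genes. A cluster of low depth with no marker of its best class among those 10 genes also stayed unnamed. This left out a cluster of 34 cells, with a median of 645 UMIs, that scored highest for fibroblast markers. TKO replicate 2 gave 16 of these cells. The rule for names was chosen with the clusters in view, and 2 clusters stayed unnamed. Scrublet called 13 doublets (0.385%), so few that the caller cannot be said to have worked, and no cell was removed for it.

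Counts were summed per library and class, for 6 classes with at least 20 cells in every library, and fitted with edgeR 4.0.16 (TMM, filterByExpr, robust quasi-likelihood, R 4.3.3). P-values were adjusted by Benjamini-Hochberg over all genes of a class. The fit was also run on simulated counts with the same spread set for every gene. These counts held no difference between libraries of a group beyond their size. They therefore cannot show how the fit behaves with the spread of these libraries. CPM are UMIs per 1000000 of the summed UMIs, and shares carry exact Clopper-Pearson 95% intervals. Named members of a list are those called, or else the 3 with the smallest p in the neutrophil-like and the macrophage- and monocyte-like class. The members and lists were chosen with earlier results of these data known. Positions are from GENCODE M21 and promoters from RefSeq, where both genes were matched by symbol. Alternatives were DESeq2 1.42.0, other size factors, no filter on low counts, a stricter cell filter, other clusterings, thinning to 1000 UMIs, a replicate block and leaving out each library. Gene counts of library pairs gave a chi-square of 22.2 to 61.2 per degree of freedom, so no library repeated another.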

Additional observations from a re-analysis of the deposited data

Results flagged for a closer look

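Ctbs, the lysosomal chitobiase gene of the same family, had both TKO libraries above both DKO libraries in some classes and below them in others. Its log2 difference, TKO minus DKO, was 0.354 in dendritic-like and 0.145 in epithelial-like cells. It was −0.836 in T- and NK-like, −0.618 in fibroblast-like and −0.77 in macrophage- and monocyte-like cells. Both TKO libraries lay below both DKO libraries for 15.9% of all genes tested in fibroblast-like and 15.7% in macrophage- and monocyte-like cells. This position alone is thus common, and no such share is given for the dendritic-, epithelial- and T- and NK-like classes. The difference between these classes was not tested, and none of the 5 Ctbs values passed the edgeR test at an adjusted p of 0.05.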

How the results depend on the processing

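Of 82 alternatives that keep all 4 libraries, 65 kept the value, 17 moved it and 0 reversed it. A difference was kept when it changed by less than the SD of replicates, and a count when it stayed within a set ratio. Counts of genes could not be labelled reversed. Nor could Chil3 in macrophage- and monocyte-like cells, where the main difference was smaller than that SD. The other clusterings repeated the main neutrophil-like and fibroblast-like values, so these are not separate checks. Thinning each cell to 1000 UMIs changed the TKO minus DKO difference in positive cells to 6.93 points for Chil1 in macrophage- and monocyte-like cells, 3.95 points for Chil1 in fibroblast-like cells and −14.4 points for Chil3 in neutrophil-like cells. Without a filter on low counts, genes called numbered 81 in neutrophil-like, 189 in macrophage- and monocyte-like and 166 in fibroblast-like cells, with 3, 6 and 1 list members among them. DESeq2 called 14, 35 and 10 genes, with 1 and 3 list members in the first 2 of these classes. The cause of these moves was not tested. With a replicate block Chil1 differed by 1.00 in neutrophil-like, 5.05 in macrophage- and monocyte-like and 2.63 in fibroblast-like cells, and Chil3 by −3.77 and −0.06 in the first 2. The block called 7 genes in macrophage- and monocyte-like cells and 25 genes with 1 list member in fibroblast-like cells. Same-numbered libraries deviated together with r of −0.0617 to 0.333 over 6 classes, and 2 pairs cannot show that the numbers pair the libraries.

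Leaving out each library in turn gave log2 differences of 0.544 to 1.47 for Chil1 and −4.95 to −3.21 for Chil3 in neutrophil-like cells. Chil3 was −4.95 without TKO replicate 1. In macrophage- and monocyte-like cells the ranges were 4.65 to 5.53 for Chil1 and −0.34 to 0.23 for Chil3, and in fibroblast-like cells 1.45 to 3.70 for Chil1. Genes called ranged from 3 to 33 in neutrophil-like, 3 to 97 in macrophage- and monocyte-like and 0 to 19 in fibroblast-like cells, and list members from 0 to 2, 0 to 5 and 0 to 2. Plac8 was not called without TKO replicate 2, when 0 list members were. A left-out library leaves a group with a single one, which is assumed to vary like the other group. No unnamed cluster scored highest for neutrophil markers, so adding such clusters gave no value. With 2 libraries a group, and 5 Chil1 UMIs in the DKO macrophage- and monocyte-like cells, counting error limits the ratios.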
